A study of Mus musculus with 4 samples.

Results

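The 10 genes of bone morphogenetic protein (BMP) signalling examined here were measured in mouse E14 embryonic stem cells: the ligand Bmp4, the receptor Bmpr1a, the signal transducers Smad1, Smad5 and Smad9, the inhibitor Smad6, and the targets Id1, Id2, Id3 and Id4. They were chosen by name, with earlier results of these data known. A gene counted as measured where the platform annotation gave a probe set exactly 1 symbol equal to the member's. All 10 members were found, out of 19938 genes with such a probe set. Each had 1 probe set, so no member rests on a choice between probe sets and none has a further probe set to compare with it. No filter on low signals was applied, and all 10 were tested.

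The series holds 4 arrays of total RNA. The 2 groups compared hold 2 arrays each: untreated E14 cells, and E14 cells given 0.5 mM valproic acid (VPA) in the medium for 4 h. E14 is an established mouse embryonic stem cell line. VPA, a branched short-chain fatty acid, blocks histone deacetylases. The title states the aim as profiling expression after a short exposure to a low dose. All the cells grew on primary embryonic fibroblasts stopped with mitomycin C, in medium with 15% fetal bovine serum and leukemia inhibitory factor. Serum contains BMPs, and cells without serum or with added BMP were not analysed here. The labels number the arrays of a group as replicates, and nothing in them says that these came from separate cultures. If they did not, the spread behind each p-value is that of repeated measurements rather than of cultures.

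BMP ligands bind a complex of type I and type II receptor kinases at the cell surface. The type I receptor phosphorylates SMAD1, SMAD5 and SMAD9, which join SMAD4, enter the nucleus and bind GC-rich or GTCT-containing elements near target genes. The Id genes are the classical immediate targets. Their proteins have a helix-loop-helix domain without a DNA-binding basic region, and they hold E proteins in dimers that cannot bind DNA. In mouse embryonic stem cells, BMP from serum together with leukemia inhibitory factor supports self-renewal, and induction of Id genes is one route by which it holds back neural differentiation. SMAD6 and SMAD7 are inhibitory SMADs that close a negative feedback loop.

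The windows upstream of 5 members are shown as context for the ligand, the receptor and the Id family. Bmp4, Bmpr1a and Id3 are the members whose untreated and VPA arrays did not overlap. These are 3 of 10, where 40.4% of all probe sets did not overlap. Id2 and Id4 are the other Id genes with an entry. Whether a motif goes with a difference between the groups was not tested. Each line gives the 250 bases before the gene's start in the RefSeq annotation of GRCm38.p6, 5′ to 3′ on the gene's strand. Capitals mark GGCGCC, which is its own reverse complement, and GTCT or its reverse complement AGAC. Both are letters that SMADs are known to bind, and they cannot overlap each other. The table matched 9 of the 10 members; Id1 was not matched.
Bmp4, chr14:46390670-46390919, minus strand: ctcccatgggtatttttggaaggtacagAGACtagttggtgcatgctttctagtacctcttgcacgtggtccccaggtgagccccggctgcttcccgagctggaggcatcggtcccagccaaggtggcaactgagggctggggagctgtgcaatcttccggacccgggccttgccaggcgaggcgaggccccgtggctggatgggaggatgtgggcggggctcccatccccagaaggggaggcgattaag
Bmpr1a, chr14:34502547-34502796, minus strand: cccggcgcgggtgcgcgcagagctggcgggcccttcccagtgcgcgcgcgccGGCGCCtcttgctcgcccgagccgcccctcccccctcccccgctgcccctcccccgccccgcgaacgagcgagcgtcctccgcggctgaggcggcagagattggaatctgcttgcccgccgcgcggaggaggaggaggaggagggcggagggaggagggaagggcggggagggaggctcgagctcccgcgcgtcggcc
Id3, chr4:136143572-136143821, plus strand: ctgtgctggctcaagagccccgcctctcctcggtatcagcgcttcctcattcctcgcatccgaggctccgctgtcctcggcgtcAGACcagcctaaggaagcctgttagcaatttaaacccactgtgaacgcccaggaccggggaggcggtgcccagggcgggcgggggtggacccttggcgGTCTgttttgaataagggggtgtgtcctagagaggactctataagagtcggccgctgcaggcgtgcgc
Id2, chr12:25096093-25096342, minus strand: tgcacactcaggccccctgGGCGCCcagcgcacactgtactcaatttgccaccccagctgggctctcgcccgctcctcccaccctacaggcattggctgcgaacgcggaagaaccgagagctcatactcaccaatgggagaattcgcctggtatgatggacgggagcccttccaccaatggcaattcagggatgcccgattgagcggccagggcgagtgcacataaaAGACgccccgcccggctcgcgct
Id4, chr13:48260866-48261115, plus strand: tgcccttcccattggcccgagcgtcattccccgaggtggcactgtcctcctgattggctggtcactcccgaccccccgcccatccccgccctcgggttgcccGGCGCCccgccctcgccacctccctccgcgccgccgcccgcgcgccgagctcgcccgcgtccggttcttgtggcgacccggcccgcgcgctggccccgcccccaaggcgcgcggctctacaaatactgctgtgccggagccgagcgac

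GGCGCC was present in the windows of Bmpr1a, Id2 and Id4, and not in those of Bmp4 and Id3. Among all windows of that length, 9.59% held it. Over the 9 matched members, which have 11 windows because Smad5 has 3 starts, it was found for 5: Bmpr1a, Id2, Id4, Smad5 and Smad9. The members' windows had between 60.0% and 78.8% G and C, against a median of 52.4% over all windows. Of the 8665 windows within that range of base composition, 24.4% held it too. These shares count windows, whereas the members were counted by gene over all their windows. The shorter motif GTCT was found on either strand for 6 of the 9, among them Bmp4 once, 222 bases before the start, and Id3 at 166 and 68 bases before it. GTCT was present in 82.9% of all windows and in 76.8% of those within the same range of base composition. A match describes letters in the reference sequence and does not show that a SMAD binds there. The arrays measured RNA and not binding or acetylation at these windows.

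None of the 10 members passed the test. With limma and Benjamini-Hochberg adjustment over all 35556 probe sets, their smallest adjusted p was 0.570, for Bmp4. No probe set of the arrays passed either, so the share called was 0% throughout the series. At an unadjusted p under 0.05 there were also 0 members, where 9.19% of all probe sets lay, 5.76% higher and 3.43% lower with VPA. Bmp4 and Id3 were measured lower, and Bmpr1a higher, on both VPA arrays than on either untreated array. These 3 of 10 members without overlap compare with 40.4% of all probe sets. By direction, 2 of 10 did not overlap with VPA lower and 1 with VPA higher, against 18.7% and 21.7% of all probe sets. These shares lie near or below the background. With 2 arrays against 2, an exact permutation test cannot give a p below 0.33, so the absence of overlap in a single gene carries little weight.

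Group means were lower with VPA for 6 members and higher for 4, where 48.2% of all probe sets were lower. The median difference, VPA minus untreated on the log2 scale, was −0.045 over the members and 0.0078 over all probe sets. The 95% interval of every member's difference included 0. In linear terms those intervals ran from 0.586-fold to 1.57-fold of the untreated signal over the 10 members. A signal change of 2-fold or more in either direction thus lay outside each of them. The intervals are not adjusted for the number of genes. They concern array signal, and whether Smad9 and Smad6 RNA was present was not tested. For 8 of the 10, the difference was smaller than the larger of the gaps between the replicates of a group. Over all probe sets that held for 72.1%.

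**Figure D1:**
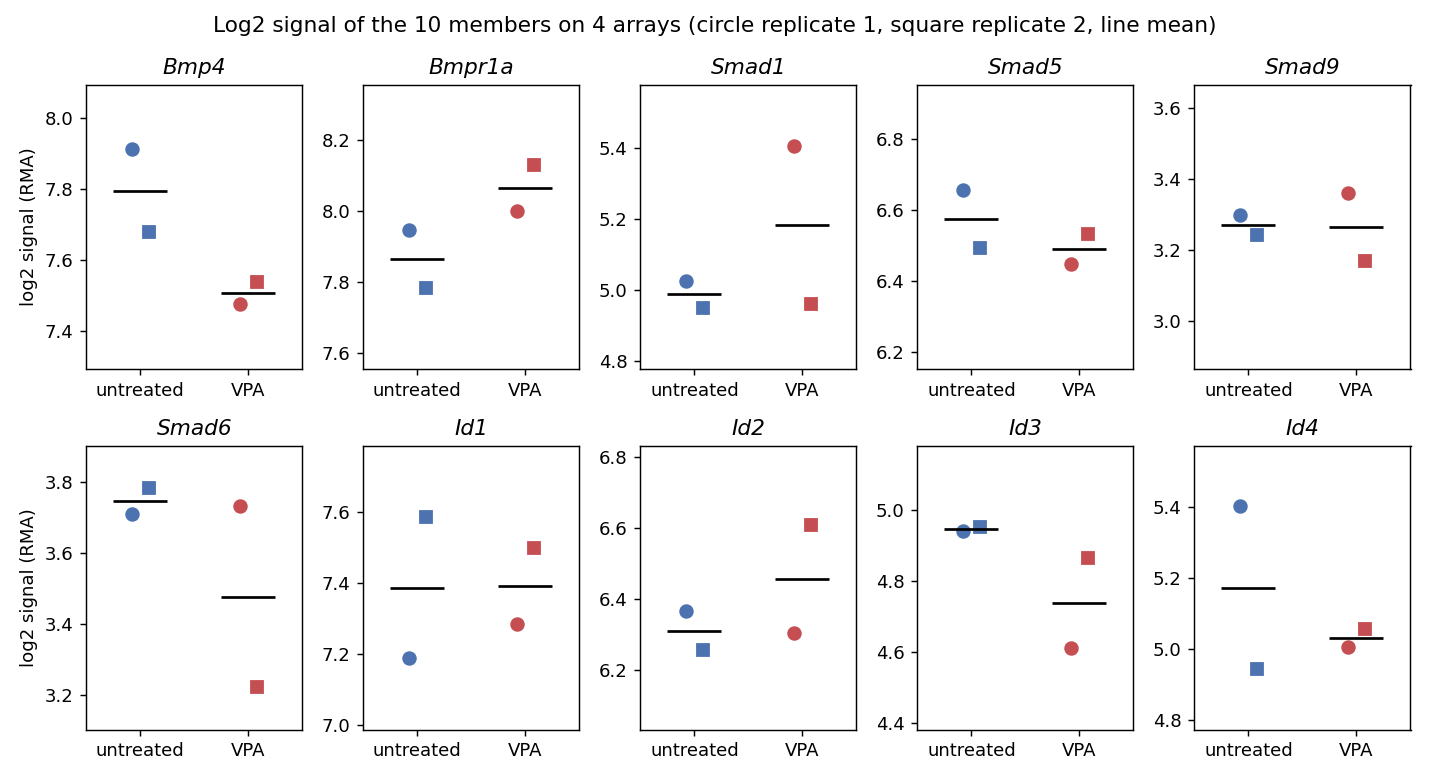
Log2 signal (vertical axis, RMA) of each member on the untreated and the VPA arrays, with replicate 1 as a circle, replicate 2 as a square and the group mean as a line; every panel spans the same 0.8 log2 units. The arrays of the groups do not overlap for Bmp4, Bmpr1a and Id3, and the gap between replicates exceeds the group difference in 8 panels, Id3 among them.

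Bmp4 (probe set 10419261), the ligand of the set, had log2 signals of 7.91 and 7.68 on the untreated arrays and 7.47 and 7.54 on the VPA arrays. Both VPA values lay below both untreated ones, by 0.14 at the closest. The group means were 7.79 ± 0.16 and 7.51 ± 0.045 (SD, n = 2), and the limma difference was −0.29 ± 0.13 (SE), with a 95% interval from −0.62 to 0.043 and an adjusted p of 0.570. This is 0.818-fold of the untreated signal, and 18.5% of all probe sets differed by more in either direction. Bmp4 was one of 2 members, with Bmpr1a, whose group difference exceeded both replicate gaps. Its untreated arrays were 0.23 apart. Without untreated replicate 2, the array least like the others over all probe sets, the difference was −0.40, and without untreated replicate 1 the value became −0.17.

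Bmpr1a (probe set 10418927), a type I receptor that binds BMP2 and BMP4, was measured the other way. Its signals were 7.95 and 7.78 in untreated cells and 8.00 and 8.13 with VPA. The groups did not overlap, but the higher untreated and the lower VPA array were only 0.052 apart. The means were 7.87 ± 0.12 and 8.07 ± 0.091 (SD, n = 2), a difference of 0.20 ± 0.12 (SE) with an interval from −0.12 to 0.52 and an adjusted limma p of 0.671. The value became 0.12 when untreated replicate 2 was left out and 0.28 when untreated replicate 1 was.

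The receptor-activated SMADs gave no common direction. Smad1 (probe set 10579860) had signals of 5.03 and 4.95 in untreated cells and 5.41 and 4.96 with VPA. Its higher mean with VPA, by 0.20 ± 0.18 (SE, limma adjusted p = 0.777), came from VPA replicate 1. The other VPA array lay between the untreated ones, and without replicate 1 of VPA the difference was −0.026. Smad5 (probe set 10405605), at 6.66 and 6.49 against 6.45 and 6.53, differed by −0.084 ± 0.12 (adjusted p = 0.870). One of its VPA arrays lay within the untreated range and the other just below it. Smad9 (probe set 10492091), the third of these transducers, had a low signal of 3.30 and 3.24 in untreated cells and 3.36 and 3.17 with VPA. Its mean was 3.27 in both groups, a difference of −0.0061 ± 0.12 with an interval from −0.32 to 0.31 (adjusted p = 0.992). The sign of so small a value turned after a second quantile normalization.

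Smad6 (probe set 10594418), which competes with SMAD1, SMAD5 and SMAD9 for the receptor and is itself a BMP target, had signals of 3.71 and 3.78 in untreated cells and 3.73 and 3.22 with VPA. The other 3 arrays lay within 0.072 of each other, and VPA replicate 2 lay far below them. The group means were 3.75 ± 0.051 and 3.48 ± 0.36 (SD, n = 2), and the difference was −0.27 ± 0.19 (SE, limma adjusted p = 0.723). Without VPA replicate 2 it was −0.014, and without VPA replicate 1 it was −0.53. Smad6 spanned the widest range of the members over the 4 arrays, 0.56. The genes whose values followed it most closely, after each gene was centred on its own mean, were Pigp, Clip2 and Gm13498. They were taken from 11290 genes with a mean above the median probe set. Their root mean square distances to Smad6 over the 4 arrays were 0.020, 0.034 and 0.039, against a median of 0.27 over those genes. All of them shared the low value on VPA replicate 2, such as Pigp at 4.95 there and between 5.41 and 5.48 on the other arrays. A likeness over 4 arrays that rests on 1 of them is a description only.

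Smad9 and Smad6 were also the members with the lowest place among all probe sets by mean signal, at the 39.2nd and 46.5th percentile. The others lay between the 62.9th (Id3) and 88.2nd (Bmpr1a) percentile. Signals of different probe sets depend on their probes as well as on the RNA, so these places do not order the transcripts by abundance. No detection calls were used, and whether Smad9 and Smad6 RNA was present at all was not tested.

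The Id genes did not move together. Id1 (probe set 10477169) had signals of 7.19 and 7.58 in untreated cells and 7.28 and 7.50 with VPA. Both VPA values lay between the untreated ones. The mean was 7.39 in both groups, with an SD of 0.28 in untreated and 0.15 in VPA cells (n = 2), and the difference was 0.0044 ± 0.18 (SE), with an interval from −0.45 to 0.46 and an adjusted limma p of 0.997. The sign of this value turned under both scaling alternatives. The interval still allows a fold between 0.731 and 1.38, so the arrays do not show that Id1 stayed level.

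Id2 (probe set 10399691) had signals of 6.37 and 6.26 in untreated cells and 6.30 and 6.61 with VPA. The higher VPA mean rested on VPA replicate 2, since replicate 1 lay between the untreated arrays. The difference was 0.15 ± 0.15 (SE, limma adjusted p = 0.801) and was −0.0064 without VPA replicate 2. Among all pairs of members, Id2 and Bmpr1a had the most similar values over the 4 arrays after centring, with a root mean square distance of 0.070. The pairs ran up to 0.36, for Smad6 and Id2. A smallest distance picked from all pairs over 4 arrays is a description only.

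Id3 (probe set 10509163) had almost the same signal on both untreated arrays, 4.94 and 4.95, and lower ones of 4.61 and 4.86 with VPA. The groups did not overlap, with 0.078 between the nearest arrays, while the VPA arrays were 0.25 apart. The difference was −0.21 ± 0.13 (SE), with an interval from −0.55 to 0.13 and an adjusted limma p of 0.674. It was −0.34 without VPA replicate 2 and −0.084 without VPA replicate 1.

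Id4 (probe set 10404975) had signals of 5.40 and 4.94 in untreated cells and 5.01 and 5.06 with VPA. Both VPA arrays lay between the untreated arrays, which were 0.46 apart. The difference was −0.14 ± 0.18 (SE, limma adjusted p = 0.850). The value became 0.088 when untreated replicate 1 was left out and −0.37 when untreated replicate 2 was. Id1 and Id4 were thus the Id genes with the wider spread between untreated replicates, and those arrays ranked them in opposite order. Replicate 1 was the lower for Id1 and the higher for Id4.

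**Figure D2:**
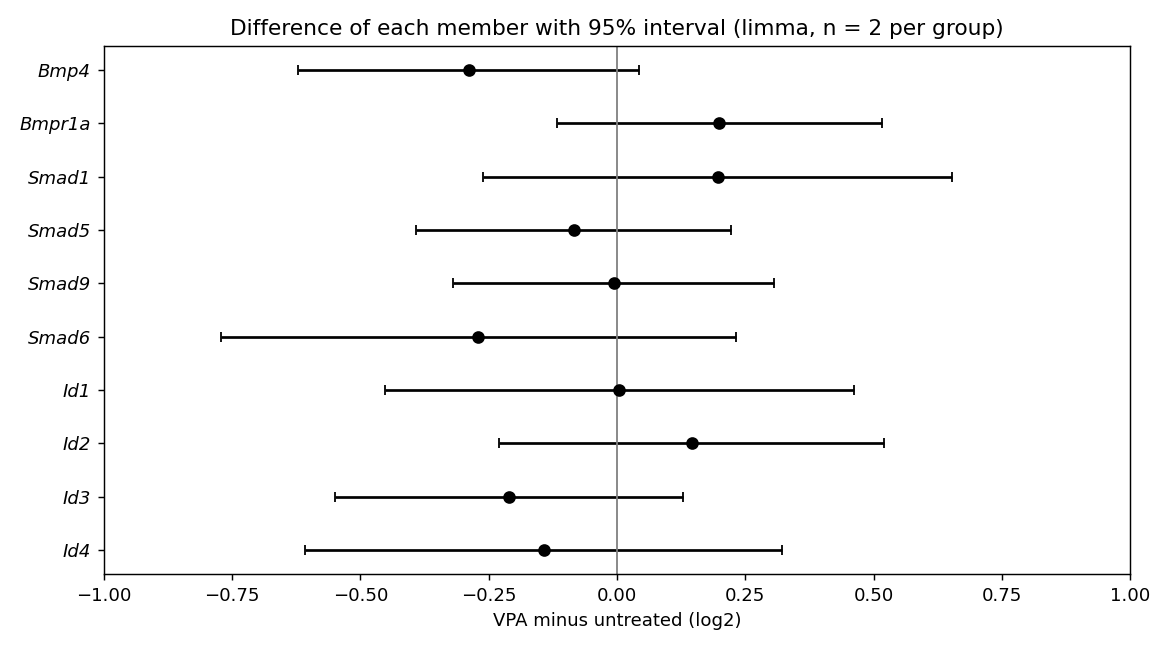
VPA minus untreated on the log2 scale (horizontal axis) for each member, as the limma estimate with its 95% interval from 2 arrays per group. Every interval includes 0, and the intervals lie between −0.77 (Smad6) and 0.65 (Smad1).

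The sign of each difference was also followed with 1 array left out at a time. Where the groups do not overlap, as for Bmp4, Bmpr1a and Id3, it cannot turn in such a fit. Where both VPA arrays lie between the untreated ones, as for Id1 and Id4, it must turn. For these genes the signs restate the overlap and add no support. The differences of Bmp4, Smad5, Smad6 and Id3 stayed below 0 and that of Bmpr1a above 0 in each such fit and under both scaling alternatives, although Smad5 came as close to 0 as −0.0026, without untreated replicate 1, and Smad6 as −0.014. Smad1, Smad9, Id1, Id2 and Id4 changed sign in at least 1 of them. At an unadjusted p under 0.05 there were 2 members without untreated replicate 2, Bmp4 (−0.40 ± 0.13, SE) and Id4 (−0.37 ± 0.13). Without VPA replicate 1 there was 1, Smad6 (−0.53 ± 0.15), and after a second quantile normalization 1, Bmp4 (−0.35 ± 0.12). Their adjusted limma p was 0.745, 0.745, 0.804 and 0.514. In the fits that leave a group with 1 array, that array is assumed to vary like the other group.

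**Figure D3:**
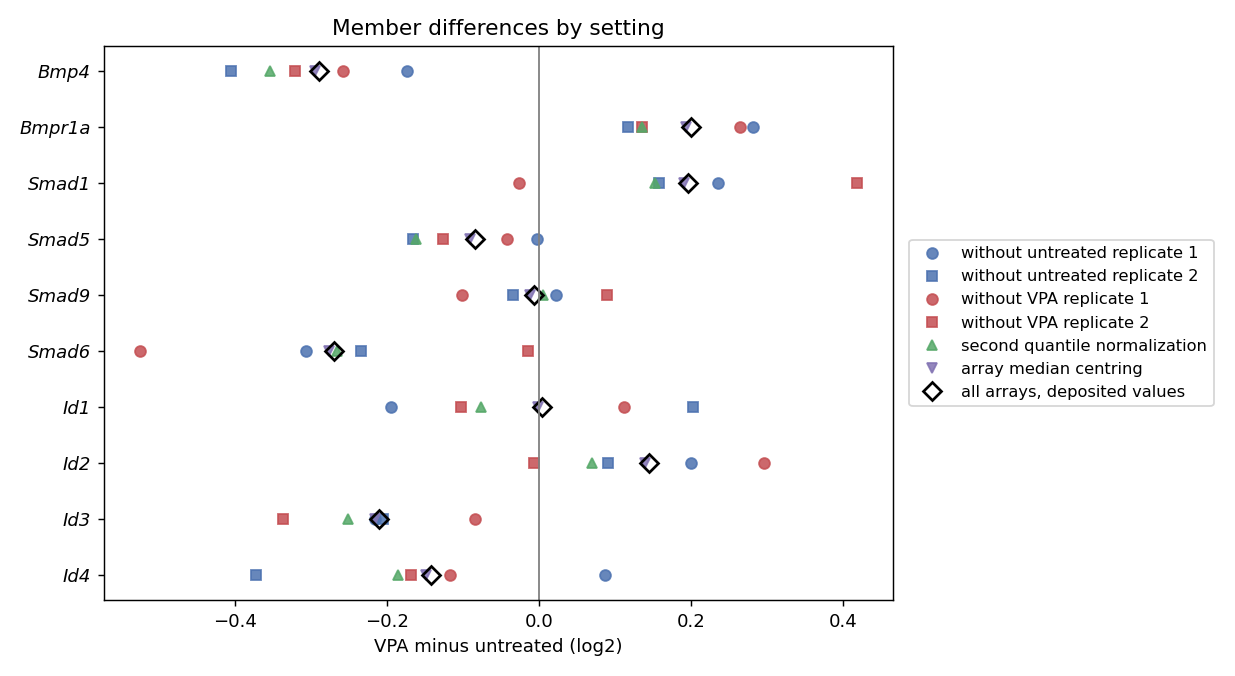
Difference of each member, VPA minus untreated on the log2 scale (horizontal axis), over all arrays (open diamonds), with each array left out (circles and squares) and under 2 other scalings (triangles). Bmp4, Smad5, Smad6 and Id3 stay left of 0 and Bmpr1a stays right of it, while Smad1, Smad9, Id1, Id2 and Id4 lie on both sides.

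The wider pathway was described with 7 lists from textbook knowledge, also chosen with earlier results of these data known. Of their 94 genes outside the members, 90 were measured and the rest were not analysed here. None of the 90 was called. At an unadjusted p under 0.05 there were 3 higher and 5 lower, and their median difference was −0.033. Arrays of the 2 groups did not overlap in 20 of the 90 with VPA higher and in 23 with VPA lower. By gene, with the brightest probe set of each, 5.9% of the 19938 genes were higher and 2.71% lower at that level. Groups did not overlap in 24.1% with VPA higher and in 18.1% with VPA lower, and 46.3% of the genes had a lower mean with VPA.

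Of 13 BMP ligands, 9 had a lower mean with VPA and 4 a higher one, with a median of −0.093, and 1, lower with VPA, had an unadjusted p under 0.05. In 7 of them, Bmp4 included, the groups did not overlap and VPA was lower, and in 1 VPA was higher. The shares over all genes were 18.1% and 24.1%. With VPA replicate 1 left out, 11 were lower and 2 higher, with a median of −0.17. Without untreated replicate 2 there were 8 lower and 5 higher (median −0.11). Without untreated replicate 1 there were 10 and 3 (median −0.089), and without VPA replicate 2 there were 9 and 4 (median −0.14). Only 5 of the 13 had a signal above the median probe set. Bmp5, a ligand of the same subgroup as Bmp7, went from 3.05 to 2.72 (−0.32 ± 0.11, SE, limma adjusted p = 0.510). Bmp7 itself went from 4.40 to 4.19 (−0.22 ± 0.13) and Bmp2, the ligand closest to Bmp4, from 2.65 to 2.43 (−0.22 ± 0.13). Bmp5 and Bmp2 lay at the 26.9th and 12.8th percentile of the signals of all probe sets, in a range where no detection calls were at hand.

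Receptors went both ways. Of 11, 6 were higher and 5 lower, with a median of 0.028 that was −0.011 without untreated replicate 2 and 0.093 without VPA replicate 2. At an unadjusted p under 0.05, 1 was higher and 0 lower. Bmpr2, the type II receptor that pairs with Bmpr1a, had signals of 6.87 and 7.09 in untreated cells and 7.34 and 7.39 with VPA, a difference of 0.39 ± 0.13 (SE, limma adjusted p = 0.504). Acvr1, another type I receptor, was measured 0.27 ± 0.12 above its untreated level (adjusted p = 0.567). Acvr2b, a type II receptor shared with activins, was measured at −0.32 ± 0.16 (0.598). The groups did not overlap for 5 of the 11 with VPA higher, among them Bmpr1a, Bmpr2 and Acvr1, and for 1 with VPA lower, Acvr2b. Among all genes those shares were 24.1% and 18.1%.

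Among the SMADs that are not members, Smad7, the second inhibitory SMAD, went from 8.79 to 8.61 (−0.19 ± 0.12, SE, limma adjusted p = 0.680). Its arrays did not overlap, as in 18.1% of all genes with VPA lower. Smad4, the partner of all activated SMADs, differed by −0.045 ± 0.13 (adjusted p = 0.947), its arrays overlapped, and with 1 array left out it ran from −0.16 to 0.073. Of the 6 SMADs, 5 were lower and 1 higher, or 4 and 2 after a second quantile normalization, with a median of −0.065 that was −0.12 after it. With 1 array left out this ran from 3 lower and 3 higher (median 0.0096, without untreated replicate 1) to 6 lower and 0 higher (without VPA replicate 1). Over all arrays 0 reached an unadjusted p of 0.05.

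Of 19 extracellular antagonists and modulators, 10 were lower and 9 higher, with a median of −0.0097 that was 0.0053 without VPA replicate 2. The groups did not overlap for 4 in each direction, against 18.1% lower and 24.1% higher among all genes. At an unadjusted p under 0.05 there was 1 lower and none higher. Fst, which encodes the ligand trap follistatin, differed by −0.36 ± 0.12 (SE, limma adjusted p = 0.512). The procollagen protease gene Bmp1, whose product also cleaves the antagonist chordin, differed by −0.28 ± 0.11 (0.552). Twsg1, a chordin-binding modulator, was at 0.28 ± 0.12 (0.554). Nog, which encodes the antagonist noggin, differed by −0.11 ± 0.13 (0.841), and by 0.0053 without VPA replicate 2.

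The 21 intracellular regulators had 12 higher and 9 lower means and a median of 0.046, which was −0.0099 with VPA replicate 1 left out (10 higher and 11 lower). Without overlap between groups were 6 higher and 4 lower ones, against 24.1% and 18.1% of all genes. An unadjusted p under 0.05 was reached by 1 higher gene and by 2 lower ones. Zfp423, a zinc finger cofactor that binds SMADs at BMP targets, had signals of 7.40 and 7.41 in untreated cells and 6.88 and 6.68 with VPA. Both VPA arrays lay well below the untreated ones, and the difference was −0.62 ± 0.12 (SE, limma adjusted p = 0.462). Ctdspl, a small C-terminal domain phosphatase, differed by −0.34 ± 0.11 (0.504), and Usp15, a deubiquitinase that acts on activated SMADs, by 0.39 ± 0.13 (0.510).

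The list of reported BMP targets, which holds the 4 Id genes and Smad6, had 13 lower and 6 higher means out of 19 and a median of −0.11. Of these, 6 lower and 1 higher had no overlap between groups, against 18.1% and 24.1% of all genes. A single gene, lower with VPA, had an unadjusted p under 0.05, and 4 genes, also lower, when VPA replicate 1 was left out. The median became −0.18 in that fit and −0.060 when untreated replicate 1 was left out. The single gene over all arrays was Msx1, a homeobox factor, at 4.69 and 4.54 in untreated cells and 3.90 and 3.99 with VPA (−0.67 ± 0.12, SE, limma adjusted p = 0.462). Gata3 differed by −0.42 ± 0.20 (0.586), but by −0.16 without VPA replicate 2 and −0.68 without VPA replicate 1. Atoh8, a helix-loop-helix factor, differed by −0.21 ± 0.13 (0.675). Dusp9, a phosphatase of ERK that BMP is known to raise in embryonic stem cells, differed by 0.12 ± 0.12 (0.803), and its arrays overlapped.

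A list of 17 helix-loop-helix genes held E protein genes, whose products Id proteins bind, and other factors not checked for binding to Id proteins. Of the 17, 11 were lower and 6 higher with a median of −0.049, or −0.0043 without VPA replicate 2. No overlap between groups was seen for 4 higher and 3 lower genes, against 24.1% and 18.1% of all genes. An unadjusted p under 0.05 was reached by 1 gene, higher with VPA. The E protein gene Tcf4 differed by 0.34 ± 0.11 (SE, limma adjusted p = 0.504), Tcf12 by 0.11 ± 0.11 (0.809) and Tcf3, which encodes the E2A proteins, by −0.10 ± 0.13 (0.850). Neurod1, a neuronal factor, was at 0.30 ± 0.14 (0.598), and Hand1 at −0.25 ± 0.12 (0.587).

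**Figure D4:**
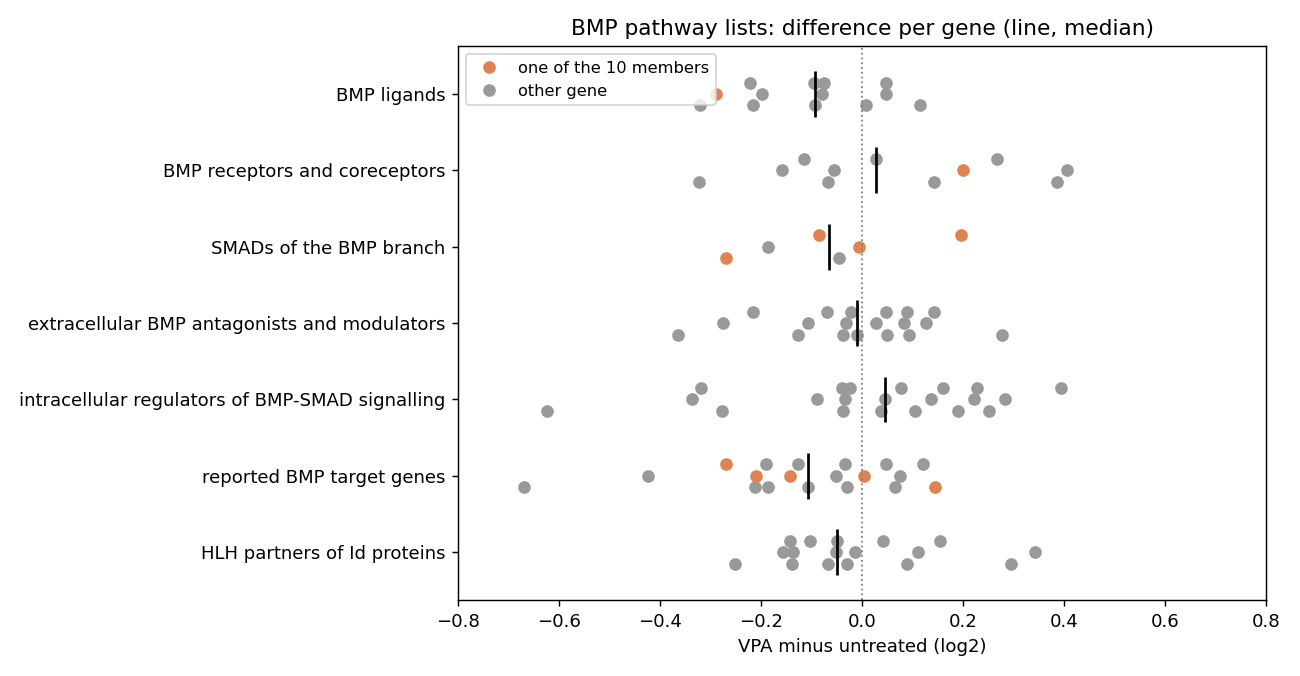
VPA minus untreated on the log2 scale (horizontal axis) for each measured gene of the 7 pathway lists (rows), with the 10 members in orange, other genes in grey and the median of a list as a line. Medians lie between −0.11 (targets) and 0.046 (intracellular regulators); a gene in more than 1 list is drawn in each.

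All 14 embryonic stem cell markers had a mean signal above the median probe set. Their mean log2 level was 9.96 and 9.89 on the untreated arrays and 9.76 and 9.82 with VPA. Of the 14, 10 were lower and 4 higher with VPA, the latter by up to 0.20. Their median was −0.15, or −0.12 without untreated replicate 1 and −0.18 without VPA replicate 2. The groups did not overlap for 8 lower and 1 higher marker. The 3 with an unadjusted p under 0.05 were all lower: Nanog (−0.48 ± 0.14, SE), Sall4 (−0.43 ± 0.11) and Utf1 (−0.33 ± 0.12), with limma adjusted p of 0.503, 0.485 and 0.515. Among all genes, 2.71% were lower and 5.9% higher at that level. With the replicate number as a block in the fit, 2 of the 14 markers reached it, both lower. Groups did not overlap in 18.1% of all genes with VPA lower and in 24.1% with VPA higher, and 46.3% had a lower mean. No test of a list was run. None of the 14 was called, and whether their lower values bear on the pathway values was not tested. Feeder fibroblasts share the dishes and also express BMP pathway genes. Of 23 fibroblast markers 22 were measured, and 17 lay above the median probe set. Their mean level was between 4.74 and 4.81 on the untreated arrays and between 4.70 and 4.72 on the VPA arrays. With VPA, 15 were lower and 7 higher, with a median of −0.094, or −0.061 without untreated replicate 2. Among them 8 lower and 3 higher had no overlap between groups, and 1 lower and 1 higher had an unadjusted limma p under 0.05. Of 15 primitive endoderm and trophoblast markers, 8 were lower and 7 higher, with a median of −0.014 that was 0.024 without untreated replicate 2. The groups did not overlap for 5 lower and 3 higher ones, and 2 lower and 1 higher had an unadjusted limma p under 0.05. Fewer cells of a type and less RNA per cell cannot be told apart in such bulk RNA, and the part of feeder RNA in the members' values was not tested. For the whole array, the probe sets at an unadjusted p under 0.05 were split into 2049 higher and 1220 lower, and into 1670 and 1542 after a second quantile normalization. Untreated replicate 2 correlated least with the other arrays, at a Pearson's r of 0.988 to 0.991 over the probe sets of an array pair; probe sets are no independent replicates.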

How the data were processed

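The authors deposited log2 signals of each probe set and array. The submitters' processing notes name RMA and Affymetrix Expression Console 1.1. RMA subtracts background, equalises the distributions of arrays and combines the probes of a set; no source used here gives which arrays went through it together. Groups came from the sample titles. The deposited signals of all 35556 probe sets on 4 arrays were fitted with limma 3.58.1 (lmFit, eBayes; R 4.3.3) and treatment as the only term. Tests were two-sided, with Benjamini-Hochberg adjustment over all probe sets and a threshold of 0.05. Residual degrees of freedom were 2, and moderation added 2.93. The number of arrays limits the precision. A gene was represented by its brightest probe set with 1 symbol. The script was checked on simulated data, where only the mean estimated difference had to lie near the true one. That check does not tell how often 2 arrays per group would detect a change. Members, lists and alternatives were chosen with earlier results of these data known. Named genes are all members, the 3 of smallest p outside the members in each list, and 10 pathway genes named by hand; for the member of widest range, the 3 genes of most similar values were added. Of the marker lists, the stem cell markers have their 3 genes of smallest p named, and for the others only summary values are given. Alternatives were a second quantile normalization, centring each array on its median, eBayes with a trend and with robust options, dim probe sets left out, the replicate number as a block, each array left out, and the mean of a gene's probe sets.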

Additional observations from a re-analysis of the deposited data

How the results depend on the processing

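In the alternative fits of single probe sets on all 4 arrays, 0 probe sets were called with limma. The smallest adjusted limma p of a member there was 0.42, for Bmp4 with dim probe sets left out. Calls were not counted where the probe sets of a gene were averaged. The number of members lower with VPA was 6 of 10 and ran from 5 to 7 with 1 array left out. Their median difference was −0.045 and ran from −0.10 to 0.0096 there, and it was −0.12 after a second quantile normalization. The number of members at an unadjusted p under 0.05, 0 over all arrays, was 1 after a second quantile normalization and 0 to 2 with 1 array left out. Id1 was at −0.077 after that normalization and −0.0014 with each array centred on its median, and Smad9 at 0.0059 after the former. With 1 array left out, Id1 ran from −0.19 to 0.20, Id2 from −0.0064 to 0.30, Id4 from −0.37 to 0.088, Smad1 from −0.026 to 0.42 and Smad9 from −0.10 to 0.090. The cause was not tested. Of the pathway genes outside the members, 8 reached an unadjusted p under 0.05, and 2 to 12 with 1 array left out. With the replicate number as a block there were 3, with fewer residual degrees of freedom. The numbers are not known to pair the arrays: over probe sets, the deviations of equally numbered arrays correlated at −0.097. With dim probe sets left out, Smad9 and Smad6 were not fitted. Members have 1 probe set each, so averaging probe sets could not move their differences.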
